A study of Homo sapiens with 11 samples.

Results

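The genes described here are 39 human genes that repair broken or crosslinked DNA by homologous recombination and the Fanconi anaemia pathway, with BRCA2, the target named on the siRNA, among them. They were chosen by name, with earlier results of these data known. All 39 had a row in the deposited table of 40460 genes, and all 39 were among the 17945 genes that could be tested, those that reached a log2 value of 3.32 (a linear value of 10) in 2 or more libraries. The lowest value of any of the 39 in any library was 4.04, for DMC1, so each of them lay above that limit in all 11 libraries.

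Total RNA was depleted of ribosomal RNA and sequenced from hTert-HME1, a line of human mammary epithelial cells made immortal with telomerase, at passage 6 in every group. Cells were transfected with RNAiMAX and kept in Mammary Epithelial Growth Medium that either held epidermal growth factor (EGF), as the complete medium does, or lacked it. The groups were BRCA2 siRNA without EGF (siRNA BRCA2-1, replicates A, B and C), control siRNA without EGF (siRNA control-2, replicates A and C), BRCA2 siRNA with EGF (A, B and C) and control siRNA with EGF (A, B and C). Each target had a single siRNA in a single cell line, so an effect of that siRNA on other transcripts cannot be told apart from an effect through BRCA2. The labels name the letters as biological replicates.

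Homologous recombination copies the intact sister DNA into a break. The MRE11-RAD50-NBN complex with RBBP8 (CtIP), EXO1 and BLM trims the broken ends to single strands, BRCA1 and BARD1 direct the choice of this route, PALB2 ties BRCA1 to BRCA2, and BRCA2 readies the single strands for strand exchange, which RAD51C, XRCC3, RAD52 and the RAD54 proteins assist. In the Fanconi pathway a core complex with the ubiquitin conjugating enzyme UBE2T marks FANCD2 and FANCI where DNA is crosslinked, and nucleases such as ERCC4 (XPF) with the scaffold SLX4 then cut. Inherited mutations of BRCA1, BRCA2 and PALB2 predispose to cancer of the breast, the tissue this line comes from.

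The siRNA target, BRCA2, showed no fall under its own siRNA in these values, so it could not serve as a check of that label. Without EGF, its log2 values were 12.48, 12.27 and 12.11 in replicates A, B and C labelled BRCA2 siRNA, against 11.44 and 11.65 in replicates A and C labelled control siRNA. With EGF they were 12.43, 12.37 and 12.40 in the libraries labelled BRCA2 siRNA, against 12.45, 12.13 and 12.48 in those labelled control siRNA. The 2 control libraries without EGF were thus the low ones, and the other 9 libraries lay between 12.11 and 12.48. The difference, BRCA2 siRNA minus control siRNA, was 0.74 ± 0.13 without EGF (± is the moderated standard error on the log2 scale, here and below; n = 3 and 2, limma adjusted p = 0.00397) and 0.05 ± 0.12 with EGF (95% interval -0.20 to 0.30, n = 3 and 3, limma adjusted p = 0.999). The libraries are named below by their labels, and each direction drawn from them carries this limit. The call without EGF ended without control replicate A without EGF (0.64, limma adjusted p = 0.0685), and when replicate A was left out of all groups (0.54, limma adjusted p = 0.399).

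Promoter windows show what letters lie at the start of some of these genes. RefSeq windows of the GRCh38.p14 assembly, 250 bases before to 50 after a start site, were used for 36 of the 39 genes, in 49 windows. RAD54B, NBN and FANCI were the others. Any windows on the chromosome that holds RAD54B and NBN were left out for the 39 genes but kept in the shares of all genes. E2F factors are known to drive genes of S phase and DNA repair, and E2F-type letters (TTCCCGC or else TTGGCGC or else TTCGCGC or else TTGCCGC, either strand, matches may overlap) were in a window of 19 of the 36 genes (52.8%), against 15.3% of all 27305 genes with a window. CHR-type letters (TTTGAA or TTCGAA, either strand), the element known from genes of mitosis, were in 4 of 36 (11.1%), against 19.5% of all genes with a window. The median GC content was 63.7% in the windows of these genes, against 58.7% in all 35116 windows, and its part in those shares was not tested. Of the genes lower without EGF with control siRNA, described below, 7 of 15 with a window held E2F-type letters (46.7%), against 12 of the other 21 (57.1%). RAD54B, NBN and FANCI, without a window here, all belong to the lower genes, so that share leaves them out. The windows below belong to BRCA2 and to some of the genes called in the comparisons that follow, and do not stand for the rest. They are shown 5′ to 3′ with matches in capitals: E2F-type letters in BLM, FANCD2 and RAD51AP1, CHR-type letters in UBE2T and ATM, and none in this window of BRCA2. ATM has another window, with no match.
BRCA2, chr13:32315258-32315557, plus strand: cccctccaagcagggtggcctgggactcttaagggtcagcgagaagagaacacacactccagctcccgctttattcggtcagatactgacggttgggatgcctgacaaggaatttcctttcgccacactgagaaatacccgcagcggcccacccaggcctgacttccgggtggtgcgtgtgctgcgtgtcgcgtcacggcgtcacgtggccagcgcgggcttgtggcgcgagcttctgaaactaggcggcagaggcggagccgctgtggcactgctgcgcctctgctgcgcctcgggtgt
BLM, chr15:90717096-90717395, plus strand: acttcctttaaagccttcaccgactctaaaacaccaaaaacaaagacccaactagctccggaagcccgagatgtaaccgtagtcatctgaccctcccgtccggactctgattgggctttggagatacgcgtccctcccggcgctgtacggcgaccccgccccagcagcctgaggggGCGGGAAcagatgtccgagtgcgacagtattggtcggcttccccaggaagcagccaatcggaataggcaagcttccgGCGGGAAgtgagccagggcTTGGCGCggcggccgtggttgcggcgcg
FANCD2, chr3:10026187-10026486, plus strand: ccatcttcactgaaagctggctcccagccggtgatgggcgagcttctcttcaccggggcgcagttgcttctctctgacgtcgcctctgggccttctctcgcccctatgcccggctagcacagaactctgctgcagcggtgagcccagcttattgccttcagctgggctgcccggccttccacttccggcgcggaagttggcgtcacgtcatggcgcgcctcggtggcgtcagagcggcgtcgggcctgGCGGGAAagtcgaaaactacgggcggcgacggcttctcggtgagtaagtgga
RAD51AP1, chr12:4538640-4538939, plus strand: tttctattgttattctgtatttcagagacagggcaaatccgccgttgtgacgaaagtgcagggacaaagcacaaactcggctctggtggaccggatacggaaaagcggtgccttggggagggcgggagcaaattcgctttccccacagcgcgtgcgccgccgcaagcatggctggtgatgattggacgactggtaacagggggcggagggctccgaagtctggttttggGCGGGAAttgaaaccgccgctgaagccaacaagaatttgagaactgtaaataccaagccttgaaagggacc
UBE2T, chr1:202341887-202342186, minus strand: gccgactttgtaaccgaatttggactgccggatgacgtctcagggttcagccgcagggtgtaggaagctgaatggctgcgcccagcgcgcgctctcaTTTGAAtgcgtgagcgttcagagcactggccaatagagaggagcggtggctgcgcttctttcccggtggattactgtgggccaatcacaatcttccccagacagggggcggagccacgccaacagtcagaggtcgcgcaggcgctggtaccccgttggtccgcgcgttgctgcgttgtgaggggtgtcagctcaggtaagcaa
ATM, chr11:108222817-108223116, plus strand: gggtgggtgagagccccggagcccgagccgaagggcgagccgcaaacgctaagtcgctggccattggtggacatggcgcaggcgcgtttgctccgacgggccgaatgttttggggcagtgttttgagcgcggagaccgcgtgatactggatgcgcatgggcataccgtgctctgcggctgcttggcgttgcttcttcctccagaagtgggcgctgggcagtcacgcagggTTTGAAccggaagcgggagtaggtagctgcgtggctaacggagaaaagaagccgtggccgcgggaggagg
BLM held 3 E2F-type matches and FANCD2 and RAD51AP1 had 1 each. A match describes letters and is not a measured site.

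**Figure D1:**
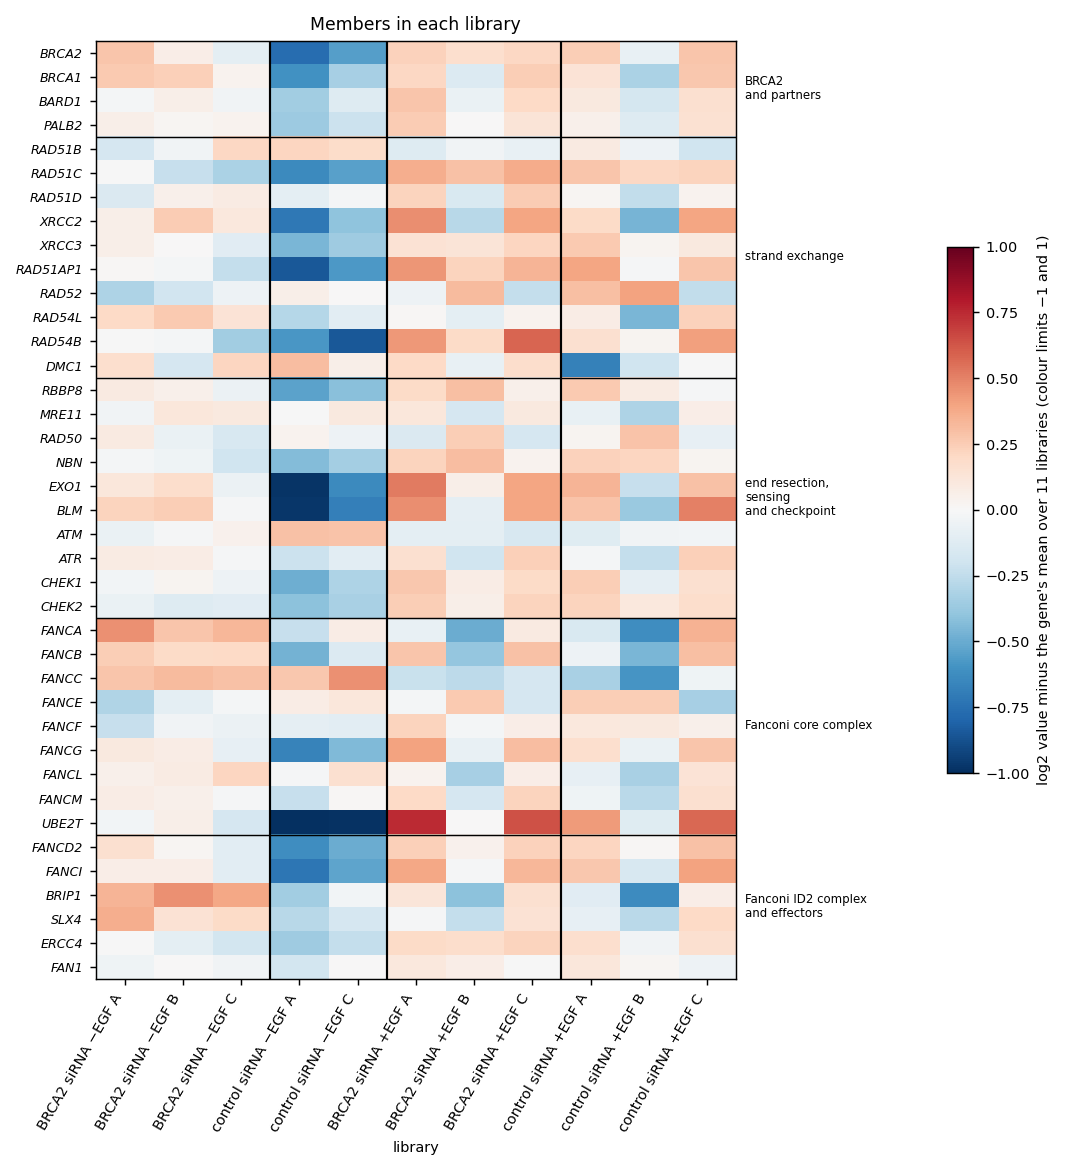
Each row is 1 of the 39 genes, grouped by role, and each column 1 of the 11 libraries, with the BRCA2 siRNA group left of the control siRNA group in each medium. Colour gives the deposited log2 value minus the mean of that gene over all libraries, from -1 (blue) to 1 (red), with values beyond these limits drawn at the limit. The 2 control siRNA libraries without EGF are blue for genes such as BRCA2, EXO1, BLM and UBE2T, and ATM is red there.

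Replicate B with EGF stood apart from replicates A and C in these genes. In the libraries labelled BRCA2 siRNA, B lay below the mean of A and C for 31 of the 39 genes, with a median difference of -0.198 log2 units, from -0.711 for XRCC2 to 0.465 for RAD52. In the libraries labelled control siRNA with EGF it lay below for 31 as well, with a median of -0.291, from -0.762 for BLM to 0.373 for RAD52. Counts are therefore also given without both B libraries with EGF, a choice made after seeing the data. Counts from fewer libraries, here and below, stand without the share of all genes tested in the same fit. A change in such a count is therefore no result about the 39 as a set. Depth is unknown, since the table holds log2 values and no counts, so no interval from counting is given. In bulk RNA such as this, fewer cells of a type and less RNA per cell cannot be told apart. The labelled cell type was matched by the basal keratins KRT5, KRT14 and KRT17, whose group means ran from 13.50 to 18.66, while of 7 luminal markers KRT19 and EPCAM stayed at or below 1.72 and 0.67 and the other 5 (KRT8, KRT18, MUC1, ESR1 and GATA3) passed the filter. Of 5 leukocyte and endothelial markers with values, CD14 alone passed it, at up to 5.61, and PTPRC and CD3E stayed at or below 3.10 and -1.01.

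Without EGF, the libraries labelled BRCA2 siRNA held more RNA of many homologous recombination and Fanconi genes than those labelled control siRNA. Of the 39 genes, 15 were higher and 1, the damage kinase ATM, was lower (limma, adjusted p under 0.05, n = 3 and 2). Of all genes tested, 11.2% were higher and 9.36% lower. The median difference was 0.38 log2 units over the 39 genes, against 0.01 over all 17945. UBE2T (1.02), the helicase BLM (0.98), the nuclease EXO1 (0.88) and BRCA2 (0.74) had the highest called differences, and PALB2 (0.33) the lowest of those called higher. The 2 groups did not overlap in 29 genes, 26 of them with all BRCA2 siRNA values above and 3 with all below. That is 74.4% of the 39, against 62.3% of all genes tested whose groups did not overlap, while limma called 20.5% of all genes tested in either direction. All BRCA2 siRNA values lay above in 66.7% of the 39 and in 33.2% of all genes tested. Over the 11955 genes that pass a stricter filter, a linear value of 100 or more in 2 libraries, 17.6% were higher and the median difference was 0.08, while 17 of the 38 members among them were higher.

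Among BRCA2 and its partners, 3 of 4 were higher. BRCA1, the tumour suppressor that acts upstream of BRCA2, had 12.55, 12.52 and 12.32 with BRCA2 siRNA, against 11.68 and 11.96 with control siRNA, a difference of 0.65 ± 0.17 (limma adjusted p = 0.0235). All 3 BRCA2 siRNA values of BRCA1 lay above both control values. PALB2, the bridge between BRCA1 and BRCA2, differed by 0.33 (limma adjusted p = 0.0469). BARD1, the partner of BRCA1 in its ubiquitin ligase, differed by 0.24 and did not pass (limma adjusted p = 0.205).

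Of the 10 strand exchange genes, 4 were higher. RAD51AP1, which stimulates strand invasion, had 11.15, 11.12 and 10.90 with BRCA2 siRNA, against 10.29 and 10.57 with control siRNA (0.63 ± 0.135, limma adjusted p = 0.00952). RAD51C, which works in complexes with XRCC2 or XRCC3, had 9.93, 9.71 and 9.62 with BRCA2 siRNA, against 9.30 and 9.39 with control siRNA (0.41 ± 0.10, limma adjusted p = 0.0169). XRCC3, its direct partner, had 9.80, 9.75 and 9.63 with BRCA2 siRNA, against 9.29 and 9.39 with control siRNA (0.39, limma adjusted p = 0.0188). None of these 3 genes overlapped between the groups. The translocase gene RAD54B differed by 0.59 (limma adjusted p = 0.0306). XRCC2 (0.69) and RAD54L (0.39) did not pass, nor did RAD51B (-0.19), RAD51D (0.06), RAD52 (-0.21) and DMC1 (-0.11), the recombinase of meiosis.

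Of the 10 genes of end resection, damage sensing and checkpoint, 4 were higher and ATM was lower. EXO1, which resects DNA ends over long stretches, had 11.33, 11.39 and 11.15 with BRCA2 siRNA, against 10.24 and 10.58 with control siRNA (0.88 ± 0.19, limma adjusted p = 0.00877). BLM, a helicase of resection and of crossover control, had 10.89, 10.91 and 10.65 with BRCA2 siRNA, against 9.68 and 9.98 with control siRNA (0.98, limma adjusted p = 0.0147). RBBP8, which starts resection, had 13.08, 13.05 and 12.94 with BRCA2 siRNA, against 12.46 and 12.58 with control siRNA (0.50 ± 0.10, limma adjusted p = 0.00785). Control replicate A was the lowest library for each of the 3. The checkpoint kinase gene CHEK1 was higher by 0.38 (limma adjusted p = 0.0279). ATM, the kinase that answers DNA breaks, had 13.35, 13.41 and 13.46 with BRCA2 siRNA, against 13.71 and 13.70 with control siRNA (-0.30 ± 0.07, limma adjusted p = 0.0159). The control values for ATM lay above all 3 others. NBN (0.30) and CHEK2 (0.26) did not pass, nor did ATR (0.21), MRE11 (0.01) and RAD50 (-0.04).

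The Fanconi core complex and its enzyme gave fewer calls, 2 of 9. UBE2T, which delivers ubiquitin to FANCD2 and FANCI, had 10.44, 10.53 and 10.31 with BRCA2 siRNA, against 9.33 and 9.48 with control siRNA, 2.03-fold higher (1.02 ± 0.23, limma adjusted p = 0.0107). FANCG, a core subunit, had 9.98, 9.96 and 9.81 with BRCA2 siRNA, against 9.22 and 9.44 with control siRNA (0.59 ± 0.15, limma adjusted p = 0.0200). Values for the other core genes ran from -0.23 for FANCE to 0.52 for FANCB, none past the threshold. Downstream, 2 of 6 were higher. FANCD2 had 11.75, 11.61 and 11.49 with BRCA2 siRNA, against 10.97 and 11.10 with control siRNA (0.58 ± 0.11, limma adjusted p = 0.00593). FANCI, its partner, had 12.29, 12.29 and 12.12 with BRCA2 siRNA, against 11.50 and 11.69 with control siRNA (0.64, limma adjusted p = 0.0198). FANCD2 and FANCI did not overlap between the groups. The helicase BRIP1 (0.58), SLX4 (0.46), ERCC4 (0.20) and the nuclease FAN1 (0.06) did not pass.

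No call of the siRNA comparison without EGF was kept whichever library was left out. Within replicate A the median difference of the 39 genes was 0.460, with 31 above 0, and within replicate C it was 0.240, with 32 above 0. The count of higher genes was 0 without control replicate A without EGF (13 higher and 1 lower at an unadjusted p under 0.05), 5 without control replicate C, 6 and 7 without BRCA2 siRNA replicates A and B without EGF, and 23 without both B libraries with EGF. ATM lost its call without control replicate A or C or BRCA2 siRNA replicate A or B. With a term for replicate A in the fit, PALB2 lost its call (limma adjusted p = 0.0652). Leaving replicate A out of all groups gave 0 calls in limma, with 5 higher at an unadjusted p under 0.05.

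**Figure D2:**
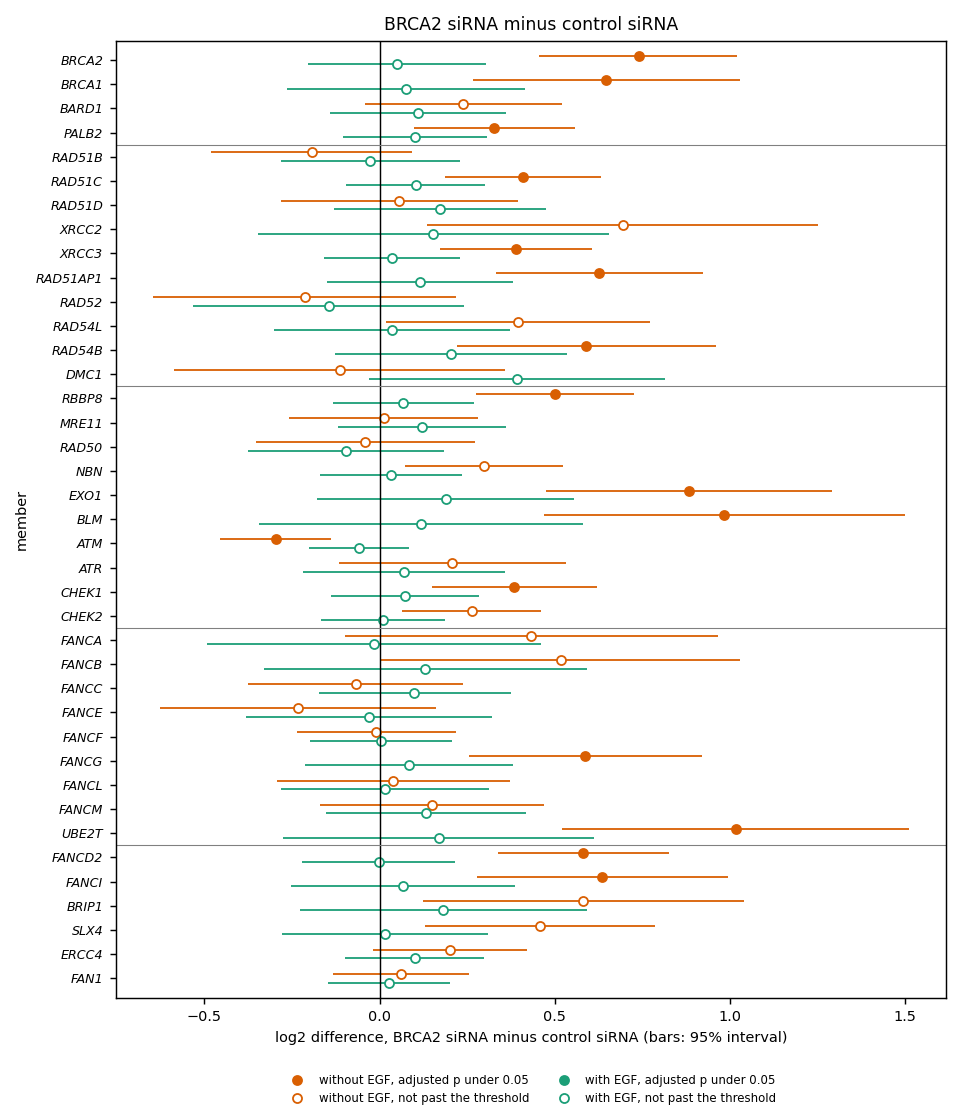
Points give the log2 difference of BRCA2 siRNA minus control siRNA for each of the 39 genes, without EGF (orange) and with EGF (green), with bars for the 95% interval from limma and filled points past an adjusted p of 0.05. Without EGF 16 points are filled, and with EGF none.

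With EGF, no difference between the libraries labelled BRCA2 siRNA and those labelled control siRNA passed in any of the 39 genes. limma called 0 higher and 0 lower, and 0 had an unadjusted p under 0.05, the lowest being 0.0659 for DMC1. Of all genes tested, 0% were higher and 0.00557% lower, which is 1 gene. The median difference was 0.07, with 32 of 39 above 0, and within replicates A, B and C the medians were 0.0825, 0.109 and 0.0248. DMC1 had 4.90, 4.64 and 4.88 with BRCA2 siRNA, against 4.04, 4.51 and 4.70 with control siRNA, and the groups overlapped. EXO1 differed by 0.19 (95% interval -0.18 to 0.55), UBE2T by 0.17 (-0.27 to 0.61) and FANCD2 by -0.00265 (-0.22 to 0.22). The point estimates of EXO1, UBE2T and FANCD2 without EGF, picked from genes called there, lay outside these intervals, which is not a test of a difference. That test, the difference of the withdrawal effects described below, called 0 of the 39 genes. The highest value of 1 group lay below the lowest of the other in RAD51C and ERCC4, both with BRCA2 siRNA above, which is 5.13% of the 39, against 5.88% of all genes tested, so the count is no result about the 39 as a set.

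EGF withdrawal under BRCA2 siRNA gave 7 calls among the 39 genes. The genes RAD51C, RAD51AP1, RAD54B, NBN, CHEK2 and ERCC4 were lower without EGF, and FANCC was higher (limma adjusted p under 0.05, n = 3 and 3). That is 6 lower and 1 higher, against 13.8% lower and 13.4% higher (27.1% in either direction) of all genes tested. The shares of lower genes lie near each other. Of the 11955 genes that pass the stricter filter 20.6% were lower, with 6 of the 38 members among them. The count of lower genes is therefore no result about the 39 as a set. The share of higher genes was smaller in the 39 than in all genes tested, and that gap was not tested. The median difference, without EGF minus with EGF, was -0.11 over the 39 genes, 0.00 over all genes tested and -0.08 over those of the stricter filter.

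RAD51C gave the lowest adjusted p, with 9.93, 9.71 and 9.62 without EGF, against 10.29, 10.22 and 10.30 with EGF (-0.52 ± 0.09, limma adjusted p = 0.00297). RAD51AP1 had 11.15, 11.12 and 10.90 without EGF, against 11.59, 11.36 and 11.48 with EGF (-0.42 ± 0.12, limma adjusted p = 0.0265). CHEK2, a checkpoint kinase that ATM switches on, had 9.79, 9.72 and 9.74 without EGF, against 10.10, 9.91 and 10.08 with EGF (-0.28 ± 0.08, limma adjusted p = 0.0256). No library without EGF reached the lowest library with EGF in these genes. The same held in 23.1% of the 39 and in 24.4% of all genes tested, so that count is no result about the 39 as a set. In either direction the groups did not overlap in 38.5% of the 39 and 46.6% of all genes tested. ERCC4, which forms the XPF nuclease with ERCC1, had 9.41, 9.31 and 9.23 without EGF, against 9.61, 9.59 and 9.64 with EGF (-0.29 ± 0.09, limma adjusted p = 0.0335). RAD54B differed by -0.53 and NBN, a subunit of the break sensor with MRE11 and RAD50, by -0.28. FANCC, a core complex subunit, had 9.42, 9.45 and 9.43 without EGF, against 8.91, 8.87 and 8.97 with EGF (0.51 ± 0.125, limma adjusted p = 0.0130). Its libraries without EGF all lay above those with EGF. BRCA2 differed by -0.12 (limma adjusted p = 0.468, and 0.02 under quantile normalization). UBE2T (-0.51), FANCA (0.52) and BRIP1 (0.43) did not pass.

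The count of lower genes depended on the libraries. It was 10 without both B libraries with EGF, 1 without replicate A with EGF or replicate C without EGF, and 2 without replicate C with EGF or replicate B without EGF, all labelled BRCA2 siRNA. RAD51C and FANCC were called whichever single library was left out. With a term for replicate A, NBN and ERCC4 lost their calls (limma adjusted p = 0.0624 and 0.0536), which leaves 4 lower. The median difference within replicates A, B and C was -0.152, 0.0564 and -0.214.

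EGF withdrawal under control siRNA lowered 18 of the 39 genes, across every role. Among them were BRCA2, BRCA1 and PALB2, the strand exchange genes RAD51C and XRCC3, the resection genes RBBP8, EXO1 and BLM, and UBE2T, FANCD2 and FANCI. FANCC and ATM were higher (limma adjusted p under 0.05, n = 2 and 3). Of all genes tested 26.1% were lower and 24.7% higher, 50.8% in either direction. Of the 11955 genes that pass the stricter filter 36.7% were lower, with 18 of the 38 members among them. The median difference was -0.26 over the 39 genes, 0.00 over all genes tested and -0.16 over those of the stricter filter. The 2 control libraries without EGF serve in this comparison and in that of the siRNAs without EGF, so the values of these comparisons are not independent.

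BRCA2 averaged 11.55 ± 0.15 without EGF and 12.35 ± 0.19 with EGF (SD, n = 2 and 3), 1.75-fold higher with EGF (-0.81 ± 0.13 as without EGF minus with EGF, limma adjusted p = 0.000444). BRCA1 averaged 11.82 ± 0.20 without EGF and 12.32 ± 0.31 with EGF (SD, n = 2 and 3), a difference of -0.50 (limma adjusted p = 0.0318). PALB2 differed by -0.32 and BARD1 by -0.26, the one called and the other not.

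RAD51C had 9.30 and 9.39 without EGF, against 10.21, 10.14 and 10.16 with EGF, and gave the lowest adjusted p of the 39 genes (-0.83 ± 0.10, limma adjusted p = 8.41e-05). RAD51AP1 had 10.29 and 10.57 without EGF, against 11.53, 11.13 and 11.42 with EGF (-0.93 ± 0.135, limma adjusted p = 0.000242). XRCC3 averaged 9.34 ± 0.07 without EGF and 9.87 ± 0.12 with EGF (SD, n = 2 and 3; -0.53, limma adjusted p = 0.00112). Every library without EGF lay below every library with EGF in these 3 genes, as in 48.7% of the 39 and 33.6% of all genes tested. In either direction the groups did not overlap in 59% of the 39 and 66.5% of all genes tested. RAD54B, a DNA translocase gene, differed by -0.91, while XRCC2 (-0.59), RAD54L (-0.14), RAD52 (-0.12), RAD51D (0.00), RAD51B (0.25) and DMC1 (0.48) did not pass.

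EXO1 had 10.24 and 10.58 without EGF, against 11.56, 10.98 and 11.51 with EGF (-0.94 ± 0.19, limma adjusted p = 0.00167). Replicate B was the lowest library with EGF for EXO1, and it still lay above both libraries without EGF. BLM was lower by the test as well (-0.97, limma adjusted p = 0.00540). RBBP8 had 12.46 and 12.58 without EGF, against 13.26, 13.08 and 12.99 with EGF (-0.59 ± 0.10, limma adjusted p = 0.000782). CHEK2 had 9.44 and 9.53 without EGF, against 10.08, 9.96 and 10.03 with EGF (-0.53 ± 0.09, limma adjusted p = 0.000622). Neither RBBP8 nor CHEK2 overlapped between the groups. NBN (-0.54) and CHEK1 (-0.51) were lower too, and ATM was higher (0.35 ± 0.07, limma adjusted p = 0.00226). MRE11 (0.15), RAD50 (-0.08) and ATR (-0.15), the kinase that answers stalled replication, did not pass.

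UBE2T had 9.33 and 9.48 without EGF, against 10.90, 10.36 and 11.04 with EGF, the furthest from 0 of the 39 genes (-1.36 ± 0.23, limma adjusted p = 0.000575). FANCG differed by -0.68 (limma adjusted p = 0.00323). FANCC went the other way, with 9.41 and 9.59 without EGF, against 8.81, 8.55 and 9.09 with EGF (0.68 ± 0.14, limma adjusted p = 0.00209). The other 6 core genes, FANCA, FANCB, FANCE, FANCF, FANCL and FANCM, ran from -0.24 to 0.17 and did not pass. FANCD2 had 10.97 and 11.10 without EGF, against 11.81, 11.60 and 11.88 with EGF (-0.73 ± 0.11, limma adjusted p = 0.000332). FANCI differed by -0.80 and ERCC4 by -0.39, both called, and BRIP1 (0.04), SLX4 (-0.17) and FAN1 (-0.11) did not pass.

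Of these 20 calls, 16 were kept whichever single library was left out. BLM, BRCA1, ERCC4 and PALB2 lost theirs without some library, and the count of lower genes ran from 14 to 21. It was 23 without both B libraries with EGF and 1 when replicate A was left out of all groups (12 at an unadjusted p under 0.05). Within replicates A and C the median difference was -0.420 and -0.368.

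**Figure D3:**
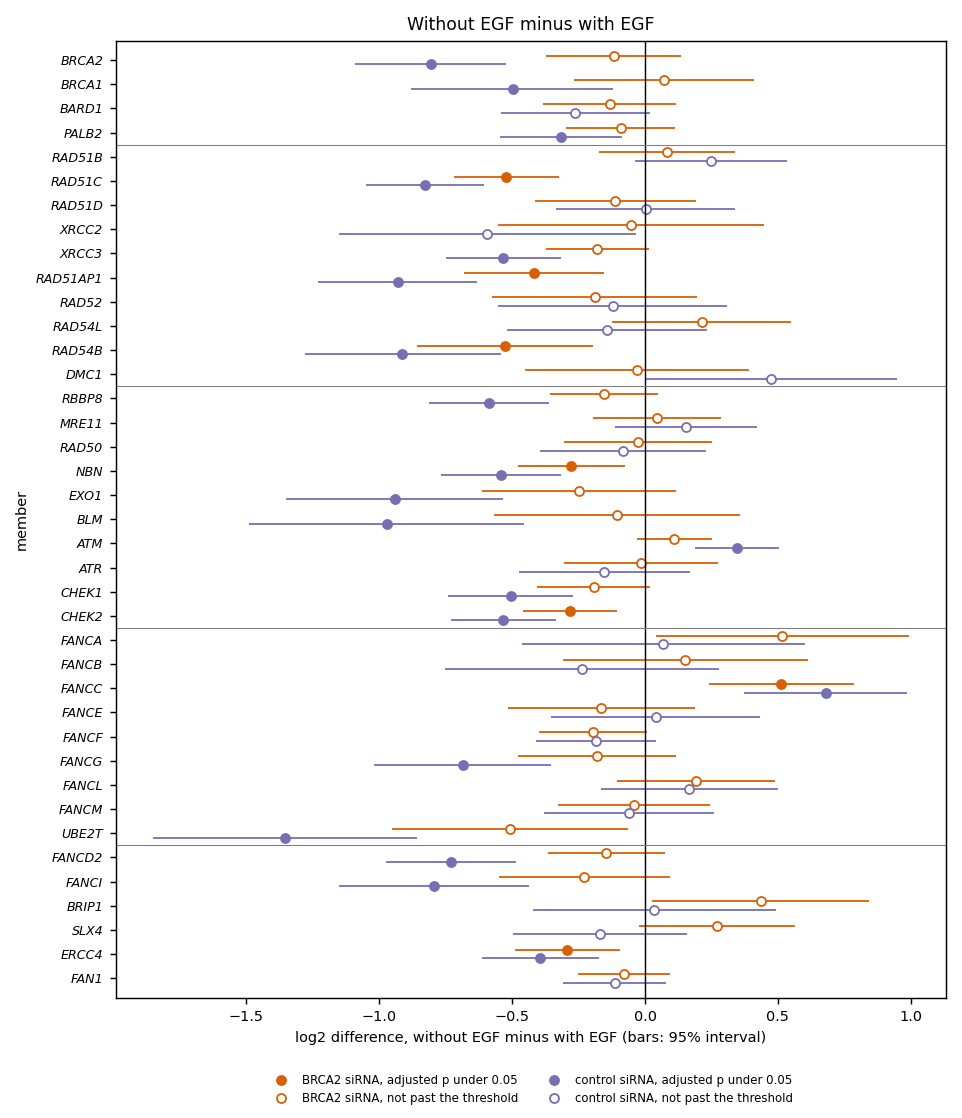
Points give the log2 difference, without EGF minus with EGF, of each of the 39 genes with BRCA2 siRNA (orange) and with control siRNA (purple), with bars for the 95% interval from limma and filled points past an adjusted p of 0.05. There are 7 filled orange points and 20 filled purple ones, and FANCC is filled on the right in both.

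The withdrawal effects under the 2 siRNAs, which share no library, can be set side by side. In 25 genes the difference was below 0 under both siRNAs and in 7 above 0 under both. It was below 0 under control siRNA alone in 4 genes and below 0 under BRCA2 siRNA alone in 3. The 6 genes called lower under BRCA2 siRNA were all among the 18 called lower under control siRNA. All 18 had a difference of smaller size under BRCA2 siRNA, a count read from genes that had passed under control siRNA. The test of the difference between the siRNAs, the effect under BRCA2 siRNA minus the one under control siRNA, called 0 of the 39 genes in limma, against 1.38% higher and 1.93% lower of all genes tested. At an unadjusted p under 0.05 there were 13 higher and 1 lower, ATM, against 3981 of all 17945 genes tested in either direction. BRCA2 came nearest (0.69 ± 0.17, 95% interval 0.31 to 1.07, limma adjusted p = 0.0532). It passed without control replicate B with EGF (0.80, limma adjusted p = 0.0339), control replicate C with EGF (0.63, limma adjusted p = 0.0479) or BRCA2 siRNA replicate C without EGF (0.78, limma adjusted p = 0.0297). It did not pass with any other single library left out, such as control replicate A with EGF (0.64, limma adjusted p = 0.143). Without any replicate A the value for BRCA2 was 0.46. FANCD2 came next (0.58 ± 0.15, limma adjusted p = 0.0563). FANCD2 differed by -0.15 under BRCA2 siRNA and by -0.73 under control siRNA. The median over the 39 genes was 0.31, and within replicates A and C it was 0.386 and 0.160. Without both B libraries with EGF, 7 genes were called higher, and leaving out single libraries gave 0 to 4 (4 without control replicate B with EGF, 3 without control replicate C with EGF, 2 without BRCA2 siRNA replicate C without EGF). The shares of all genes in those fits are not given, so these counts are no result about the 39 as a set.

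**Figure D4:**
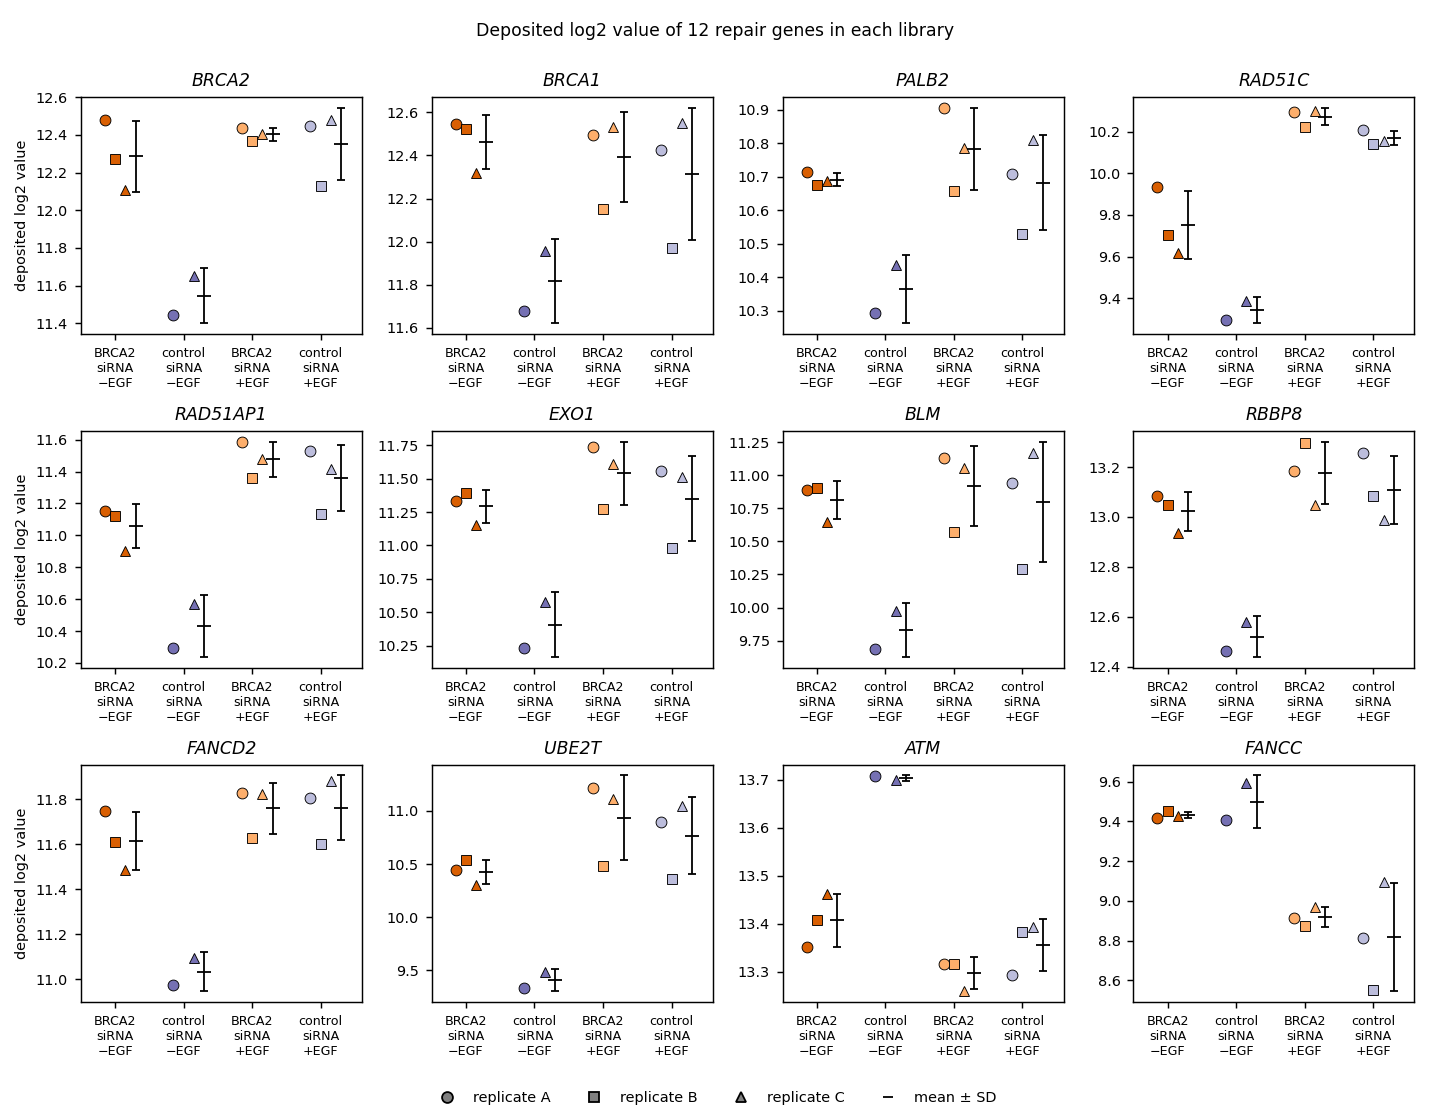
Each point is the deposited log2 value of 1 library (shape gives the replicate letter), for 12 of the 39 genes in the 4 groups, with the mean and SD drawn beside the points (n = 2 for control siRNA without EGF, 3 for the others). The axes do not start at 0 and differ between genes. In BRCA2 the control siRNA libraries without EGF read 11.44 and 11.65, and all other libraries 12.11 or more.

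In all, 20 of the 39 genes passed in at least 1 comparison and 19 in none. Genes that passed in none include the break sensors MRE11 and RAD50, the kinase ATR, BARD1, 6 of the 10 strand exchange genes, and most of the Fanconi core. On withdrawal with control siRNA, calls fell on 3 of the 4 BRCA2 partner genes, 7 of the 10 resection and checkpoint genes, 4 of the 10 strand exchange genes, 3 of the 9 core genes and 3 of the 6 downstream genes.

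Genes beyond the 39 were counted in the same way. Of 53 further homologous recombination and crosslink repair genes tested, 14 were higher and 3 lower with BRCA2 siRNA than with control siRNA without EGF, with a median of 0.28. The nuclease subunit gene EME1 differed by 0.84 and the helicase gene MCM8 by 0.62. Under EGF withdrawal 3 were higher and 9 lower with BRCA2 siRNA (median -0.06), and 5 higher and 22 lower with control siRNA (median -0.32). ERCC1, the partner of ERCC4, differed by -0.46 with BRCA2 siRNA and by -0.86 with control siRNA. Of 14 genes of non-homologous end joining, the rival route that rejoins ends directly, 2 were higher with BRCA2 siRNA without EGF (XRCC6, the Ku70 gene, 0.39, and PAXX 0.41), and under withdrawal 3 were lower with BRCA2 siRNA and 5 lower and 1 higher with control siRNA. With EGF, limma called 0 of either list between the siRNAs, and 0 had an unadjusted p under 0.05.

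Genes of the cell cycle moved with these differences. Of 37 genes that mark S phase or mitosis, 22 were higher with BRCA2 siRNA than with control siRNA without EGF (median 0.73), 10 were lower on withdrawal with BRCA2 siRNA (median -0.12) and 21 on withdrawal with control siRNA (median -0.67). The difference of the withdrawal effects was called higher in 11 of the 37. Their summed level was 17.95 to 18.24 log2 units in BRCA2 siRNA libraries without EGF, 17.35 to 17.54 in control siRNA libraries without EGF, 17.94 to 18.28 in BRCA2 siRNA libraries with EGF and 17.84 to 18.32 in control siRNA libraries with EGF. The 2 control libraries without EGF were again the low ones. In the same libraries fibroblast marker genes were high: 4 of the 6 tested were lower with BRCA2 siRNA than with control siRNA without EGF, and 6 of 6 were higher on withdrawal with control siRNA and 3 of 6 with BRCA2 siRNA. The summed level took all 7 fibroblast markers, with COL1A2, which did not pass the filter. It was 11.84 to 12.56 in BRCA2 siRNA libraries without EGF and 13.04 to 13.16 in control siRNA libraries without EGF. With EGF it was 10.85 to 11.01 in BRCA2 siRNA libraries and 10.69 to 11.06 in control siRNA libraries. COL1A2, a defining fibroblast gene, stayed between 1.31 and 1.84. Basal markers moved as well, with KRT14 lower with BRCA2 siRNA than with control siRNA without EGF, and 3 of 6 higher on either withdrawal. Their summed level was 19.04 to 19.26 in BRCA2 siRNA libraries without EGF, 19.41 to 19.60 in control siRNA libraries without EGF, 18.40 to 18.52 in BRCA2 siRNA libraries with EGF and 18.33 to 18.49 in control siRNA libraries with EGF. Of 5 luminal markers, 1 was higher and 2 lower with BRCA2 siRNA without EGF, 1 was higher and 2 lower on withdrawal with BRCA2 siRNA, and 3 were higher and 1 lower on withdrawal with control siRNA. In the difference of the withdrawal effects KRT8 was lower (-0.76). The summed level took all 7 luminal markers, with KRT19 and EPCAM, which did not pass the filter. It was 12.03 to 12.17 in BRCA2 siRNA libraries without EGF and 12.21 to 12.24 in control siRNA libraries without EGF. With EGF it was 12.49 to 12.54 in BRCA2 siRNA libraries and 12.37 to 12.62 in control siRNA libraries. CD14 differed by -1.04 between the siRNAs without EGF, by 0.82 on withdrawal with BRCA2 siRNA and by 2.00 on withdrawal with control siRNA, each called. The part of the cell cycle genes and of these markers in the repair gene differences was not tested.

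**Figure D5:**
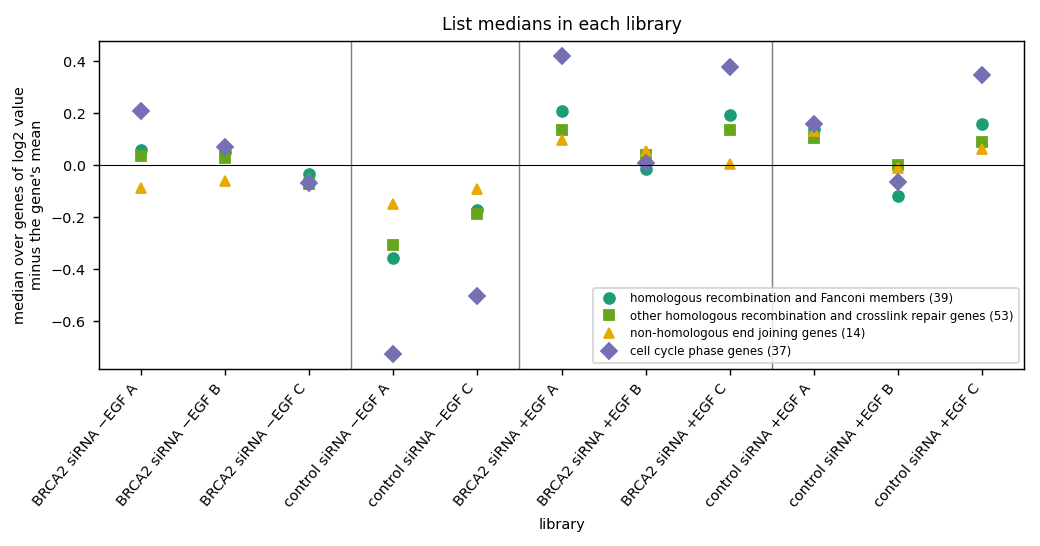
For each library, points give the median over a gene list of the log2 value minus the mean of that gene over all 11 libraries, for the 39 homologous recombination and Fanconi genes, 53 further genes of these routes, 14 end joining genes and 37 cell cycle genes. Control siRNA replicates A and C without EGF are lowest in each list, at -0.36 and -0.17 for the 39 genes and at -0.73 and -0.50 for the cell cycle genes.

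Some values may hold reads of neighbours. In GENCODE 29, 19 of the 39 genes have exons that overlap a gene on the other strand, 11 of them a protein-coding gene (ATM with NPAT and C11orf65, XRCC3 with KLC1, CHEK2 with HSCB, FANCI with POLG), and 7 overlap a gene on the same strand (CHEK1 with STT3A, RAD54B with FSBP). Whether strand was used in counting is not given in the sources used here. CHEK2, FANCD2, RAD51AP1, RBBP8 and MRE11 have named pseudogenes that could share reads, so their values are less certain on that account.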

How the data were processed

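Total RNA of 11 hTert-HME1 libraries had been depleted of ribosomal RNA (RiboZero) and made into libraries with Script-seq v2, per the labels' protocols. The authors deposited 1 table of log2 values for 40460 Ensembl genes, from -2.94 to 20.62. The submitters' processing notes name hg19, TopHat2 2.0.11, DESeq2 and limma without roles. For the counter, the annotation and the transform, nothing is stated there: not given in the sources used here. For each gene, the 4 replicate A libraries and the other 7 had the same mean to within 7.2e-09, so the deposited values had been centred between these sets, which do not hold the groups in equal parts. That step uses up a degree of freedom, so an alternative fit kept replicate A as a covariate, with 6 residual degrees of freedom. Depth is unknown, since the table holds no counts.

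Symbols were matched through a gene name table, which named 37585 genes. The 17945 genes with a log2 value of at least 3.32 in at least 2 libraries were fitted in limma 3.58.1 (R 4.3.3) with 4 group means, 7 residual degrees of freedom and a mean-variance trend. Tests were two-sided, adjusted after Benjamini and Hochberg over all genes of a comparison, with a threshold of 0.05. The fit was tested on simulated data. All 39 genes could be named, with values by library for BRCA2 and up to 12 others per comparison by smallest p, and up to 4 genes of each other list by smallest p. Genes, lists and motifs were chosen with earlier results of these data known. A gene of the further repair list is not reported here and stands in none of its counts.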

Additional observations from a re-analysis of the deposited data

Results flagged for a closer look

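RFWD3, a ubiquitin ligase gene of crosslink repair and not one of the 39 genes, differed in its withdrawal effect between the siRNAs by 0.61 ± 0.15 (limma adjusted p = 0.0482). Under BRCA2 siRNA it had 11.93, 11.88 and 11.73 without EGF, against 12.22, 11.99 and 12.13 with EGF. Under control siRNA it had 11.15 and 11.35 without EGF, against 12.26, 11.98 and 12.15 with EGF.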

How the results depend on the processing

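Among the 41 calls of genes other than BRCA2, 0 changed sign in any alternative. Counts are given as higher and lower of the 39 genes, without the share of all genes under each alternative. A change in a count is therefore no result about the 39 as a set. Under quantile normalization they were 11 and 1 for BRCA2 siRNA minus control siRNA without EGF and 3 and 15 for withdrawal with control siRNA. With no filter they were 11 and 1 for the former and 2 and 17 for the latter. For BRCA2 siRNA minus control siRNA without EGF they were 15 and 1, 25 and 1 with the groups compared alone, 23 and 1 without both B libraries with EGF, 14 and 1 with a term for replicate A, 0 and 0 without any replicate A, and 0 to 15 and 0 to 1 with 1 library left out. For withdrawal with BRCA2 siRNA they were 1 and 6, 2 and 2 under quantile normalization, 1 and 2 with no filter, 2 and 5 with the groups compared alone, 1 and 10 without both B libraries with EGF, 1 and 4 with a term for replicate A, 0 and 0 without any replicate A, and 1 and 1 to 5 with 1 library left out. For withdrawal with control siRNA they were 2 and 18, 0 and 1 without any replicate A, and 2 to 3 and 14 to 21 with 1 library left out. For the difference of the withdrawal effects they were 0 and 0, 7 and 0 without both B libraries with EGF, and 0 to 4 and 0 with 1 library left out. With EGF they were 0 and 0 throughout. The cause of these changes was not tested, and the reduced sets also hold fewer libraries. BRCA2 siRNA minus control siRNA without EGF was 0.54 for BRCA2 without any replicate A (adjusted p = 0.399) and 0.64 to 0.84 with 1 library left out. Its withdrawal effect with control siRNA was -0.65 without any replicate A (adjusted p = 0.0696) and -0.92 to -0.70 with 1 library left out, and the difference of its withdrawal effects was 0.78 without both B libraries with EGF (adjusted p = 0.0342) and 0.59 to 0.80 with 1 library left out. The stricter filter, at a linear value of 100, tested 38 of the 39 genes, without DMC1.

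Whether the replicate letters pair the libraries was not settled. The centring of replicate A removes a shared deviation of A, so its 6 pairs (-0.37 to -0.12) could not show one. Of the 9 other same-letter pairs, the B pair and the C pair with EGF had deviations from the group means that correlated at 0.695 and 0.700, and the 7 others ran from -0.13 to 0.04. Of 11 libraries, 4 correlated best with their own letter. With the letter as a replicate block the counts were 21 and 1 for the siRNAs without EGF, 3 and 7 for withdrawal with BRCA2 siRNA, 2 and 20 for withdrawal with control siRNA and 4 and 0 for the difference of withdrawal effects, that of BRCA2 being 0.73 (adjusted p = 0.0330). With no counts in the table, what depth limits cannot be stated.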
